A study of Mus musculus with 3 samples.

Results

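Nr4a2, Cyrib, Stag1, Pla2g4a, Boll and Nptn are 6 mouse genes at which intervals bound by the leukaemia fusion protein NUP98-HOXD13 were narrower or lower after the menin-MLL inhibitor VTP50469. They were chosen from the widths and fold enrichments of the deposited intervals, so those values are a description here and no test was made on them. Every interval whose summit lay in the RefSeq span of 1 of these genes, or within 10 kb of it, was taken. That gave 16 of the 655 intervals of the DMSO list and 10 of the 439 intervals of the VTP50469 list. The genes are 6 of 21887 protein-coding genes on chromosomes 1 to 19, X and Y.

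The cells were a mouse leukaemia line named for the fusion and grown with IL-3, IL-6 and SCF. All groups carried the biotinylated fusion, which was recovered on streptavidin beads after formaldehyde crosslinking. One group received the solvent DMSO, the other 2 µM VTP50469, and both were sampled at 96 h. Each group was 1 library, and a DMSO input library was the third sample, with no list of its own used here. The labels do not give how the fusion received its biotin, whether the line is 1 clone, or the age of the source animal. Peak lists hold no expression values, so the labelled cell type was not checked against marker genes.

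NUP98-HOXD13 joins the phenylalanine-glycine repeats of a nucleoporin to the DNA-binding homeodomain of HOXD13, a posterior HOX protein. Menin is an adaptor that holds the histone methyltransferase MLL1 at its target genes, and VTP50469 occupies the pocket of menin that MLL1 uses. HOX targets with MLL1 and menin are known for keeping leukaemic blasts in a progenitor state. The 6 genes form no single pathway. Nr4a2 encodes an orphan nuclear receptor, Stag1 a subunit of the cohesin ring, and Cyrib a protein that binds active RAC1 and restrains actin branching. Pla2g4a encodes the cytosolic phospholipase that frees arachidonic acid from membranes. Nptn encodes neuroplastin, an immunoglobulin-family partner of plasma-membrane calcium pumps, and Boll a germ-cell RNA-binding protein of the DAZ family.

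The letters of the bound intervals were not used here, so the sequences shown are promoter windows of the RefSeq GRCm38.p6 table. Each holds the 250 bases before an annotated start and 50 bases counted from the start base itself. Windows existed for 5 of the 6 genes, 7 in all, and none was listed for Cyrib. Those of Nr4a2 and of the first Pla2g4a start are shown because they are the starts nearest to bound summits, and the second Pla2g4a window because it alone held HOX-type letters. All lie on the minus strand and are written 5′ to 3′ on that strand, with matches to the searched letters in capitals.
Nr4a2, chr2:57123954-57124253: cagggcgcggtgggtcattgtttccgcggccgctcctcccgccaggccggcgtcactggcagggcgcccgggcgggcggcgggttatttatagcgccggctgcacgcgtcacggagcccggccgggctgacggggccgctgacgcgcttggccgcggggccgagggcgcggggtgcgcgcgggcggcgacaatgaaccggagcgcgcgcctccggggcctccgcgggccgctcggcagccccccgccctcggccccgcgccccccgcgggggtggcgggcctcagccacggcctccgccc
Pla2g4a first start, chr1:149961241-149961540: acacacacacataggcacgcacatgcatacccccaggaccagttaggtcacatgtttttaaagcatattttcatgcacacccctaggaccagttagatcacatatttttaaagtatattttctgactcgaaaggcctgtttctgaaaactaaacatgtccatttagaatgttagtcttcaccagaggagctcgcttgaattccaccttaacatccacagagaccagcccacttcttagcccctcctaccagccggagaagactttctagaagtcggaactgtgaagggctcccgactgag
Pla2g4a second start, chr1:149922390-149922689: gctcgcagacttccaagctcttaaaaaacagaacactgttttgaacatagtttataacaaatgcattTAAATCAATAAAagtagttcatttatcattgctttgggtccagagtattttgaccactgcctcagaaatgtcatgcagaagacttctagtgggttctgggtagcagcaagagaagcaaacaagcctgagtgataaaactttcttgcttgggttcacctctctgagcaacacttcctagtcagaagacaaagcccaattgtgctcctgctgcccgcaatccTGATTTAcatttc
On both strands, CAATAAA (letters preferred by posterior HOX proteins) occurred in 1 of the 7 windows and in 4.60% of all 32851 promoter windows. TGATTTA (a HOX and PBX composite) occurred in 1 of 7 and in 2.97% of all windows. TAATTA (a general homeodomain core) occurred in 0 of 7 and in 5.29%. TGACAG (the core of MEIS-type homeodomains) occurred in 2 of 7, both of Boll, and in 19.2%. In the second Pla2g4a window a CAATAAA match overlaps a TGATTTA match on the other strand. These are letter matches in windows that no interval of the 6 genes reached. None of the 16 DMSO intervals and none of the 10 VTP50469 intervals overlapped any promoter window, against 2.28% of all 613 DMSO intervals on the chromosomes and 2.75% of all 400 VTP50469 intervals.

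The intervals lay inside the genes. Summits fell within the gene span for 16 of 16 DMSO and 10 of 10 VTP50469 intervals, where the whole lists gave 61.0% and 50.2% inside a protein-coding span. The choice by gene span largely fixed this, since summits far from genes could not enter. The RefSeq table used gives spans and starts without exons, so exon, intron and UTR are not told apart. No other summit came near the limit of 10 kb. The closest outside it lay 197528 bp from Cyrib, with a DMSO fold of 16.9 and a width of 412 bp, and its VTP50469 counterpart at 197561 bp had a fold of 19.4 and a width of 456 bp.

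The 6 genes held 16 intervals with DMSO and 10 with VTP50469. Of the 16 DMSO intervals, 8 overlapped a VTP50469 interval by at least 1 bp and 8 were in the DMSO list alone, a share close to the background of 50.2% of all 613 DMSO intervals. Of the 10 VTP50469 intervals, 0 were in that list alone, against 22.2% of all 400. Covered length was 12309 bp with DMSO and 4365 bp with VTP50469, a ratio of 0.355, against 0.653 for the whole lists. The mean fold enrichment was 10.2 and 6.88 over these intervals, against 9.03 and 8.76 over the whole lists. Fold enrichment is the authors' peak-caller ratio of a library to its local background, and each list was called on its own.

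**Figure D1:**
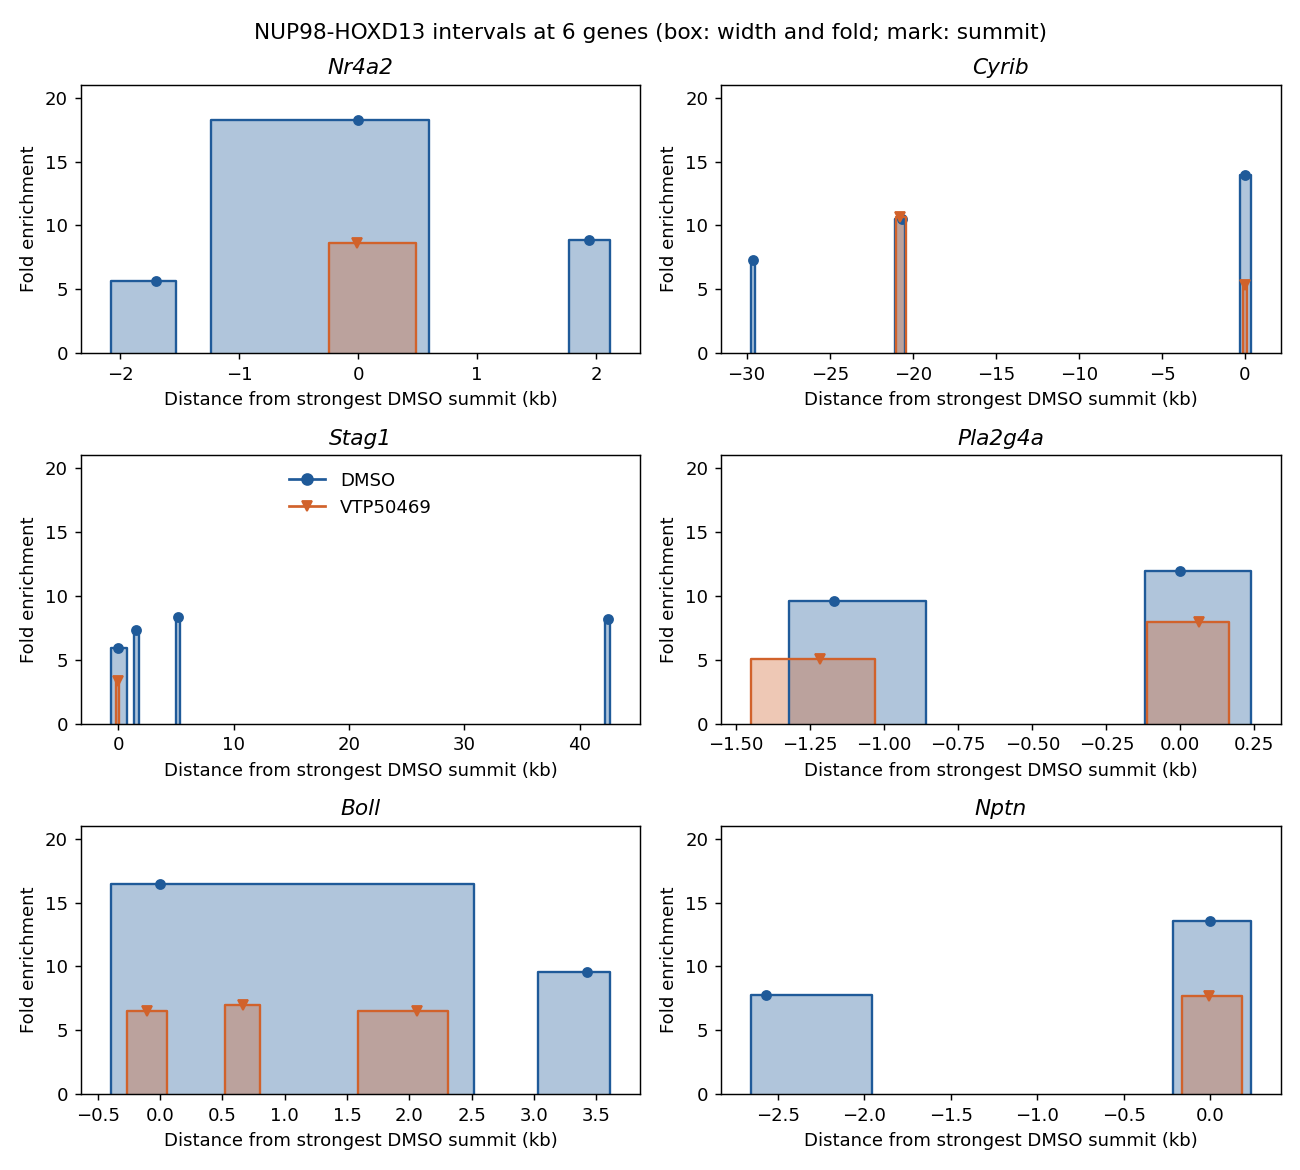
Intervals at each gene, drawn as boxes over the distance in kb from the strongest DMSO summit in increasing genome position, with box height giving the fold enrichment and a mark at the summit; box outlines are not read profiles. DMSO boxes (blue) number 16 and VTP50469 boxes (orange) 10, and each orange box meets a blue one.

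Of the 8 shared intervals, 7 were narrower and 7 had a lower fold with VTP50469. Over all 305 shared DMSO intervals on the chromosomes 67.9% were narrower and 64.9% had a lower fold, so direction alone was common. A fold at least 1.5 times lower was listed at 7 of 8, with a background of 13.1%, and a width at least 1.5 times narrower at 4 of 8, with a background of 10.2%. Both at once occurred at 4 of 8, with a background of 5.9%. No VTP50469 interval was under 240 bp, so the narrower DMSO intervals could not reach the width cut. The median DMSO width was 614 bp at the 8 and 413 bp over all shared intervals, so the backgrounds for width are not on equal terms. The median width ratio of VTP50469 to DMSO was 0.616 at the 8 intervals and 0.925 over all shared intervals. The median fold ratio was 0.549 and 0.925. Since these values chose the genes, the gaps are not evidence that the genes stand apart. With a single library for each treatment, no difference here has a replicate check, and in bulk chromatin fewer cells with the fusion bound cannot be told apart from less fusion per cell.

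**Figure D2:**
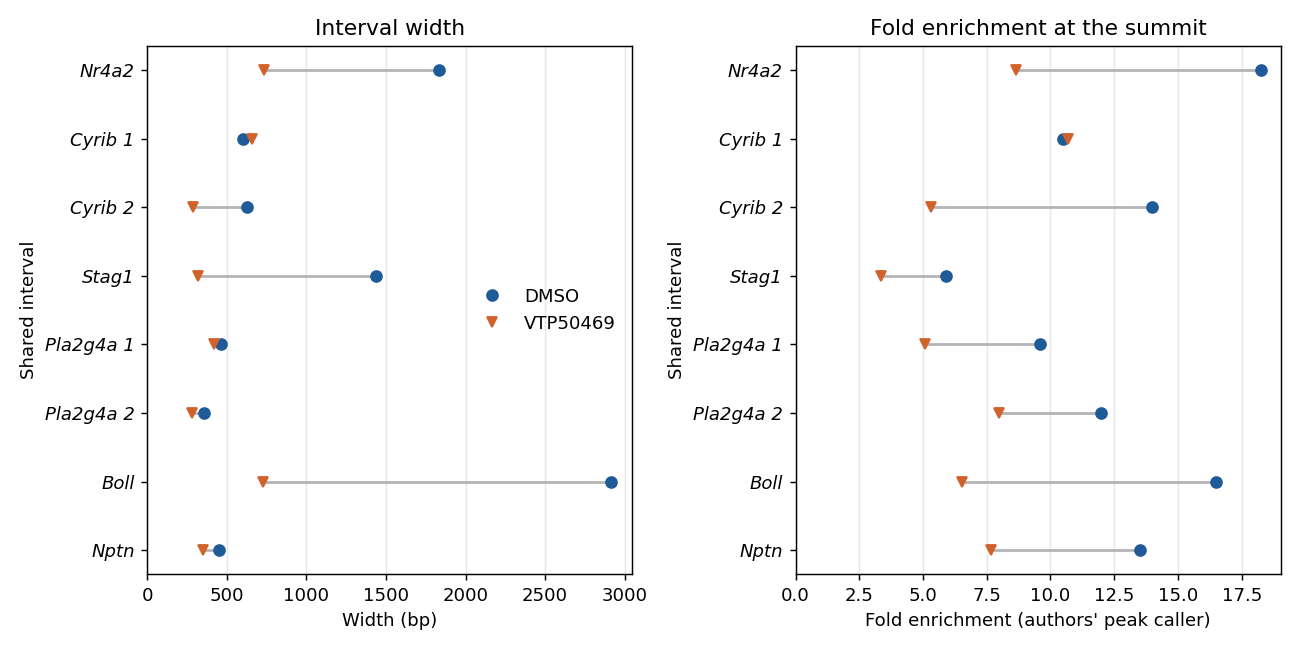
Width in bp (left) and fold enrichment (right) of the 8 shared intervals, with DMSO as circles and VTP50469 as triangles; Cyrib 1 and 2 and Pla2g4a 1 and 2 are numbered by increasing position. The lines are long in both panels at Nr4a2, Boll and Cyrib 2, and at Cyrib 1 the 2 marks nearly meet, at folds of 10.5 and 10.7.

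Nr4a2 held 3 DMSO intervals close behind its start and 1 VTP50469 interval. The shared DMSO interval, chr2:57119089-57120919, was 1831 bp wide, rank 13 of 613 by width, and had a fold of 18.3. Its VTP50469 partner, chr2:57120085-57120814, was 730 bp wide with a fold of 8.66. The width ratio was 0.399 and the fold ratio 0.474. The summits lay 11 bp apart, 3677 bp and 3688 bp downstream of the annotated start whose promoter is shown above. The narrowing was uneven around that fixed summit. The low-coordinate side, which for this minus-strand gene is the side farther from the start, was shorter by 996 bp, and the side nearer the start by 105 bp. The gene's other intervals were in the DMSO list alone. The one at chr2:57122096-57122446, 1740 bp downstream of the start, had a fold of 8.84, and the one at chr2:57118245-57118791, 5377 bp downstream, had a fold of 5.62.

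Stag1 had most intervals in the DMSO list alone, 3 of its 4. Its shared DMSO interval, chr9:100695936-100697375, was 1440 bp wide with a fold of 5.90, and the VTP50469 partner, chr9:100696379-100696693, was 315 bp wide with a fold of 3.35. The width ratio of 0.219 was the lowest of the 8 and rank 4 of all 305. That partner was near the caller's threshold, however, with a −log10 q of 2.97, rank 380 of 400, where the lowest of that list was 2.02. The summits were 10 bp apart, 53130 bp and 53140 bp downstream of the 1 start that had a promoter window. The gene span begins upstream of that start, and the summits lay 98869 bp and 98879 bp from this end of the span. Here both sides drew in, by 443 bp and 682 bp. The intervals in the DMSO list alone had folds of 7.34, 8.39 and 8.24, all above that of the shared one. Their local background was 1.31, however, against 6.00 at the shared one. By −log10 q the shared DMSO interval was the strongest, at 15.7 against 7.75, 11.1 and 11.1. The intervals in the DMSO list alone lay 54668 bp, 58322 bp and 95523 bp downstream of the same start. The gene's DMSO summits thus reached over 42393 bp, while the VTP50469 list held 1 summit.

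Cyrib held neighbouring intervals of both kinds. The shared interval at chr15:63989985-63990608, called Cyrib 2, was 624 bp wide with a DMSO fold of 14.0, and its partner at chr15:63990143-63990426 was 284 bp wide with a fold of 5.30. Its fold ratio of 0.380 was the lowest of the 8 and rank 3 of all 305. Cyrib 1, in the same gene at chr15:63969228-63969831, went the other way. It was 604 bp wide with a fold of 10.5 in the DMSO list and 660 bp wide with a fold of 10.7 in the VTP50469 list. The width ratio of 1.09 and fold ratio of 1.02 are the ones above 1 among the 8, and the summits of this pair were 108 bp apart. A weaker interval at chr15:63960532-63960790, with a fold of 7.34 and a width of 259 bp, was in the DMSO list alone.

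Pla2g4a held a pair of intervals just inside its first start, and both were found in both lists. The stronger, chr1:149959801-149960158, had its DMSO summit 1369 bp downstream of the start, a fold of 12.0 and a width of 358 bp. In the VTP50469 list the fold was 7.97 and the width 278 bp. The other, chr1:149958600-149959063, had a fold of 9.59 with DMSO and 5.09 with VTP50469. Its width hardly differed, 464 bp and 419 bp, so at Pla2g4a 1 the fold ratio was 0.531 and the width ratio 0.903. That VTP50469 interval was also displaced: it began 129 bp before the DMSO interval and ended 174 bp before its end, and its summit lay 49 bp away. It was near the caller's threshold, with a −log10 q of 2.87, rank 382 of 400, where the lowest of that list was 2.02. Ptgs2, which encodes the cyclooxygenase that acts on arachidonic acid downstream, lies nearby on chromosome 1 and the DMSO summit nearest to it was 56492 bp outside its span.

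Boll carried the widest interval of the 6 genes, and it was listed in pieces with VTP50469. The DMSO interval, chr1:55244315-55247231, was 2917 bp wide, rank 9 of 613 by width, with a fold of 16.5. It overlapped 3 VTP50469 intervals of 324, 282 and 724 bp, with folds of 6.53, 6.98 and 6.53. Their widths sum to 1330 bp, or a ratio of 0.456, and the widest of them alone gave 0.248. More than 1 partner occurred at 8 of all 305 shared DMSO intervals, or 2.62%. The DMSO summit lay 1146 bp inside the low-coordinate end of the span. That is the end away from both annotated starts, and the nearer start was 118016 bp off. The nearest annotated start of any gene was that of Mars2, a mitochondrial methionyl-tRNA synthetase gene, 7535 bp away. The nearest VTP50469 summit was 106 bp from the DMSO one, and that of the widest piece 2061 bp. A second DMSO interval, chr1:55247748-55248325, with a fold of 9.59 and a width of 578 bp, was in that list alone.

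Nptn held a shared interval and a neighbour in the DMSO list alone. At chr9:58593726-58594173 it was 448 bp wide with a DMSO fold of 13.5, and the partner at chr9:58593778-58594126 was 349 bp wide with a fold of 7.68. The summits were 4 bp apart, 11699 bp and 11695 bp downstream of the annotated start, the smallest shift of the 8 pairs. The fold ratio was 0.568 and the width ratio 0.779, so the fold ratio lay further below 1. Its neighbour in the DMSO list alone, chr9:58591283-58591986, was wider, at 704 bp, and had a fold of 7.79.

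Summits mostly stayed in place. With the partner of largest overlap, the shift was at most 108 bp at 7 of the 8 shared intervals, and the median was 40.5 bp against 26.0 bp over all shared intervals. Boll was the exception at 2061 bp, but another of its VTP50469 pieces had its summit 106 bp away. With that choice of partner, summits within 200 bp of each other were found at 7 of 8 and at 94.1% of all 305.

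Pla2g4a had 0 intervals in the DMSO list alone, though the VTP50469 partner of Pla2g4a 1 lay near the caller's threshold. The 8 intervals in the DMSO list alone were spread over 5 of the 6 genes. Their folds ran from 5.62 to 9.59 with a median of 8.01, against a median of 6.89 for all 308 such intervals. Their widths ran from 259 to 704 bp with a median of 441 bp, against 308 bp. The shared intervals of the 6 genes had a median DMSO fold of 12.8, against 9.25 over all shared ones. A signal under the caller's threshold is not listed, so an interval missing from the VTP50469 list is not shown to be without fusion there.

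Fold and p-value together allow the number of fragments at each summit to be recovered, because the peak caller derives both from that number and a local background. Whole counts were required, and 1 solution was accepted at each of the intervals of the 6 genes when the −log10 p it gave lay within 0.003 plus 0.2% of the listed one. Comparing the counts assumes that both lists used 1 control. At the 4 shared intervals whose background stood above the genome-wide value, it was, to the nearest whole number, 2 and 2 at Nr4a2, 3 and 3 at Cyrib 2, 6 and 6 at Stag1, and 2 and 2 at Nptn in the DMSO and VTP50469 lists. Backgrounds are in control fragments, and on this reading the VTP50469 library was 5.51% less deep than the DMSO library. Over all shared intervals with a DMSO background of at least 1.9, the 2 lists gave backgrounds within 5% of each other at 59 of 91. The counts restate the folds that chose the genes, so they too are a description.

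Nr4a2 had 155 fragments with DMSO and 68 with VTP50469 at its shared summit, a depth-scaled ratio of 0.464 (0.344 to 0.621). All intervals given with ratios are 95% exact binomial ones and cover counting error only. Cyrib 2 had 158 and 55, a ratio of 0.368 (0.266 to 0.504). Boll had 107 and 38, a ratio of 0.376 (0.252 to 0.549), at its widest VTP50469 piece, and 38 was also the count at the nearest summit. The piece with the highest fold had 62 fragments, a ratio of 0.613 (0.441 to 0.846). With the widest piece taken for Boll these 3 ratios were the lowest of the 8, but with the piece of highest fold Boll lay above Pla2g4a 1, Stag1 and Nptn.

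Pla2g4a 1 had 61 and 29 fragments, a ratio of 0.503 (0.312 to 0.795). Stag1 had 116 and 61, a ratio of 0.557 (0.401 to 0.765). Its low fold of 5.90 stood on more fragments than the fold of 12.0 at Pla2g4a 2, where 77 were counted over a background of 1.31. Nptn had 114 and 60, a ratio of 0.557 (0.400 to 0.768). Pla2g4a 2 had 77 and 47, a ratio of 0.646 (0.440 to 0.940), with an upper bound close to 1. Cyrib 1 had 67 and 64, and its ratio of 1.01 (0.706 to 1.45) spanned 1.

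Upper bounds below 1 were found at 7 of the 8 shared intervals, and at 19.1% of the 298 shared intervals with counts in both lists. The median ratio was 0.530 at the 8 and 0.903 over the 298. Because the counts restate the folds that chose the genes, the choice largely fixed the 7 of 8. The gap to 19.1% is not evidence about these genes. The intervals in the DMSO list alone had 78 and 56 fragments at Nr4a2, 46 at Cyrib, 46, 53 and 52 at Stag1, 61 at Boll and 49 at Nptn. The VTP50469 list reached down to 26 fragments at the genome-wide background, where the fold was 4.61. Equal folds, such as 7.34 at Cyrib and Stag1, come from equal counts at equal background.

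**Figure D3:**
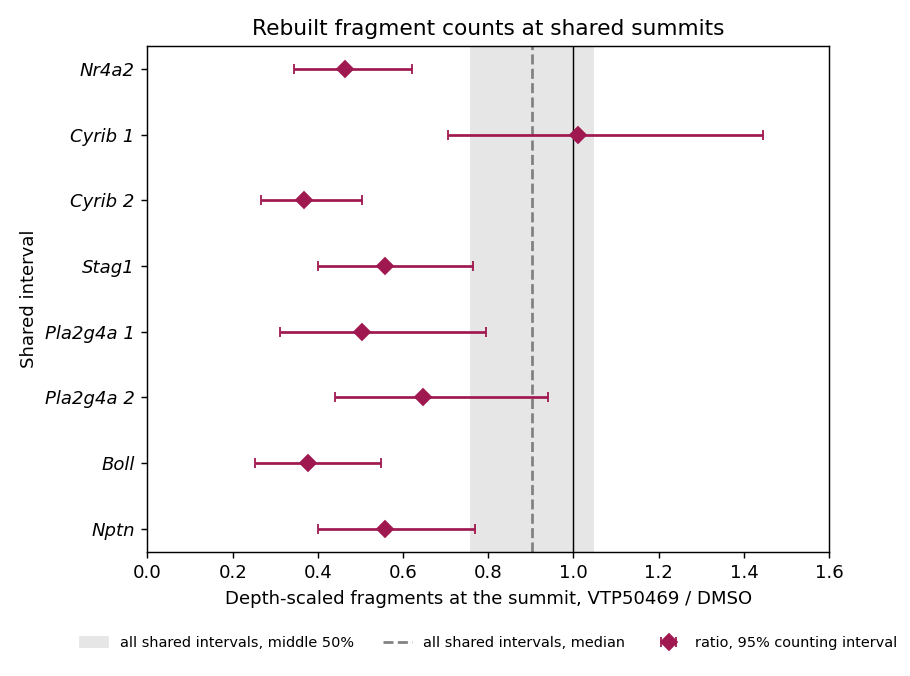
Depth-scaled ratio of VTP50469 to DMSO fragments at the 8 shared intervals (diamonds, with 95% counting intervals), beside the median (0.903, dashed) and the middle 50% (grey, 0.760 to 1.04) of all shared intervals. The diamonds at 7 intervals lie left of the grey band, and Cyrib 1 lies inside it.

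Over all shared intervals, low fold ratios were listed more often at the higher DMSO folds. In 4 groups of the shared intervals by DMSO fold, from the lowest folds to the highest, the median fold ratio was 1.01, 0.958, 0.822 and 0.825. A fold at least 1.5 times lower was listed for 3.80%, 1.35%, 19.7% and 27.6% of them. The group of lowest folds ended at a DMSO fold of 6.74, and the VTP50469 list at 4.61 at the genome-wide background. A weak interval with a much lower VTP50469 fold would thus often be unlisted and not counted as shared. The caller's threshold alone therefore keeps the shares low in the groups of low folds. The 8 intervals of the 6 genes fell as 1, 0, 4 and 3 in these groups. Ratio and grouping share the DMSO fold, and its part in the low ratios of the 6 genes was not tested. Width moved with fold as well: at the 40 shared intervals with a fold at least 1.5 times lower, the median width ratio was 0.682, and 18 of the 40 were at least 1.5 times narrower.

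**Figure D4:**
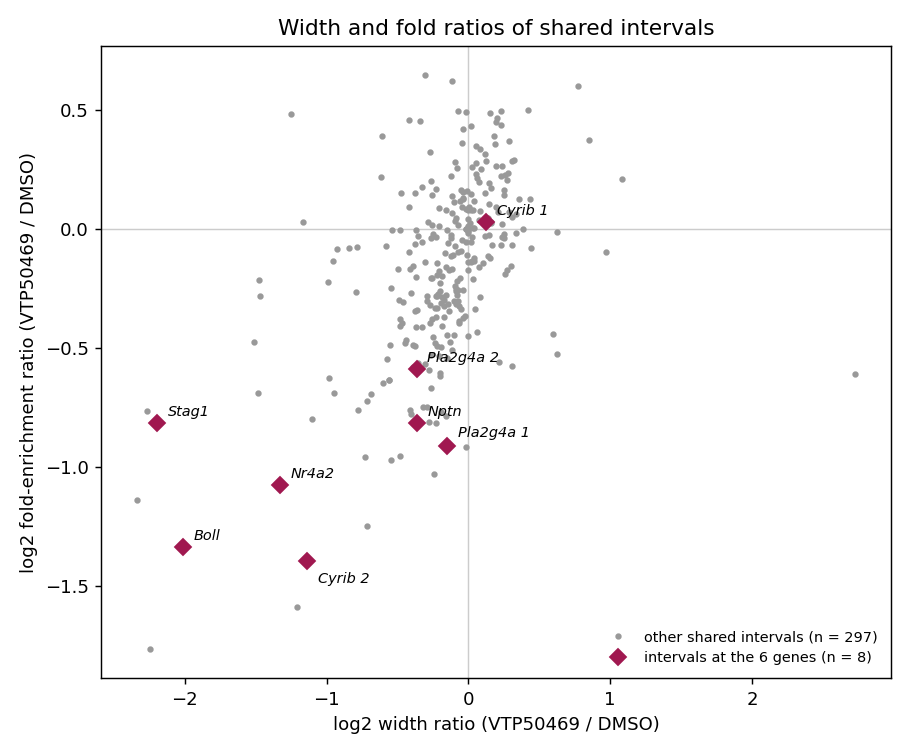
Log2 ratio of width (horizontal) and of fold enrichment (vertical), VTP50469 over DMSO, for the 8 shared intervals of the 6 genes (diamonds) and the other 297 (grey points). Nr4a2, Cyrib 2, Boll and Stag1 lie low on both axes, Pla2g4a and Nptn low mainly on the fold axis, and Cyrib 1 near the origin.

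Other genes of the same families and pathways were read for fusion intervals too. Of 51 family and pathway genes, 2 had a DMSO summit within 10 kb and 1 a VTP50469 summit, beside 1.48% and 1.06% of all protein-coding genes. Counts this small say nothing of whether these genes differ from the rest. Both were among the 13 other cohesin genes. Nipbl, which encodes the protein that loads cohesin onto DNA, had 3 DMSO intervals and 1 VTP50469 interval. Its shared interval, chr15:8411347-8411864, was 518 bp wide with a fold of 8.99, and 269 bp wide with a fold of 5.57 with VTP50469. The other Nipbl intervals were in the DMSO list alone, with folds of 7.63 and 5.23. Pds5a, a gene for a regulator that sits on the cohesin ring, had 1 interval of 999 bp and fold 9.59 at chr5:65664360-65665358, in the DMSO list alone. Counts were 0 in both lists for the 2 other NR4A receptors, 9 genes around CYFIP and RAC1, 14 genes of arachidonic acid metabolism, 5 genes of the DAZ family and its partners, and 8 relatives and partners of neuroplastin.

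The genes whose strongest shared interval was most like those of the 6 were sought by distance on the log2 scale from the median of the 6 strongest intervals in width ratio and fold ratio. The 6 themselves lay at 0.16 (Nr4a2), 0.46 (Cyrib), 0.87 (Boll), 0.88 (Nptn), 0.94 (Pla2g4a) and 0.97 (Stag1). Most of them thus stood farther from that median than the genes named next. Among 178 other protein-coding genes, the nearest was LOC105244150, at a distance of 0.16, which lies across the Nr4a2 start and owes its place to the same interval. Phip, a gene for a bromodomain and WD-repeat protein, followed at 0.20, with widths of 753 and 351 bp and folds of 13.0 and 7.47. Dach1, a gene for a transcriptional corepressor, came next at 0.36, with widths of 1741 bp and, for the larger of its 2 partners, 622 bp, and folds of 15.2 and 9.40. Nipbl followed at 0.38 and Rps6ka5, a kinase gene of the MSK type, at 0.40, with widths of 629 and 318 bp and folds of 13.5 and 8.75. Phip and Dach1 each had 3 further intervals in the DMSO list alone, as many as Stag1.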

How the data were processed

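Peaks of biotinylated NUP98-HOXD13 were measured by BioChIP-seq in 1 DMSO and 1 VTP50469 library, with paired 37 bp reads per the labels' protocols. Per the submitters' processing notes, MACS2, bedtools and STAR 2.7.5a were among the tools and mm10 was the build; their settings, the threshold and the control are not stated there. For each interval the authors deposited a fold enrichment (ratio to background) and −log10 values of p and q (the p-value and q-value of its summit). The authors' deposited score repeated the −log10 q and was not used.

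Starts were made 1-based. Intervals on chromosomes 1 to 19, X and Y were compared, 613 and 400, and 42 and 39 elsewhere were left out. Sharing needed 1 bp of overlap, and the partner with the largest overlap was used. Genes came from RefSeq GRCm38.p6, and 51 of 51 family genes matched. Fragment counts k were solved from fold = (x + 1)/(background + 1) and the Poisson p-value, with x a whole k scaled to the control. This solved 606 and 394 intervals. On 600 simulated peaks per list, drawn from that same model, 100.0% were right. Depth is known only as a ratio of the libraries, for want of read totals. The scripts ran in Python 3.11.15, with scipy 1.17.1 for the distributions, pandas 2.3.3, numpy 2.4.6, and figures by matplotlib 3.10.9.

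The members and lists were chosen with earlier results of these data known. Named genes were the 6 members, family genes with a peak, and the 5 other genes nearest in width and fold ratio. Alternatives varied the flank, the −log10 q, the overlap rule, the choice of partner, the height measure, the sequences and the list length.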

Additional observations from a re-analysis of the deposited data

How the results depend on the processing

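Among 89 values under other settings, 12 were labelled as moved and 77 as the same, a label that allowed some change. No median ratio crossed 1. Flanks of 2 kb and 50 kb left the intervals of the 6 genes as they were, at 16 and 10. At −log10 q of at least 5, 8 VTP50469 intervals of the 6 genes were left. Of the DMSO intervals, 6 were then shared and 10 were in that list alone, as the partners at Stag1 and Pla2g4a 1 dropped out. At −log10 q of at least 10, 4 VTP50469 intervals and 4 shared intervals of the 6 genes were left, 3 of them narrower and 3 with a lower fold; fewer intervals enter by construction. At −log10 q of at least 5 and of at least 10, 0 family genes had a VTP50469 peak, as the Nipbl interval was then left out. With reciprocal overlap of at least 50 percent, 4 intervals were shared, 3 narrower and 3 with a lower fold, and 6 VTP50469 intervals counted as unshared, since a much narrower partner cannot cover that much of a wide interval. The median width ratio was then 0.841, against 0.616 with 1 bp of overlap. The median fold ratio was 0.616 against 0.549, and 12 DMSO intervals were in that list alone. With summits within 200 bp, 2 VTP50469 intervals, both pieces at Boll, were unshared. With the 400 strongest peaks of each list, chosen after seeing the data, 70.5% of all shared intervals had a lower fold, and the cause was not tested. No paired analysis was possible because the treatments have a single library each, and none could be left out. Weak intervals near the caller's threshold are the least certain.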
